A study of Mus musculus with 12 samples.

Results

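The difference between the injury responses of Yap/Taz knockout and control hepatocytes was measured in all 12 libraries of the series. For every gene it is the log2 fold change of Yap/Taz KO + CCl4 against Yap/Taz KO minus the log2 fold change of ctrl + CCl4 against ctrl, the interaction of genotype and injury. A positive interaction means that the change with injury was more positive in the knockout: a rise was larger there or a fall smaller. Hepatocytes were sorted by flow cytometry from perfused livers of Yapflox/flox; Tazflox/flox mice, which carry conditional alleles of both genes in all 4 groups of 3 samples. The 6 knockout samples came from mice given 5e11 genome copies of AAV8.TBG.PI.Cre.rBG, in which the hepatocyte-specific TBG promoter drives Cre recombinase, 3 weeks before injury or collection. The 6 injured samples were collected 48 h after carbon tetrachloride (CCl4) at 1 ml/kg, a toxin that pericentral cytochrome P450 enzymes convert into a reactive radical. The labels name no control vector for ctrl and no vehicle injection for the uninjured groups, so effects of the vector and of the injection cannot be told apart from those of genotype and injury. Each library was a 3' tag library of 500000 sorted cells. Nothing in the labels says that the 3 samples of a group are separate animals, so every p-value here reflects sample-to-sample spread that could be technical.

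YAP (Yap1) and TAZ (Wwtr1) are transcriptional co-activators held in check by the kinases of the Hippo pathway. When the kinases are inactive they enter the nucleus, bind TEAD transcription factors and activate genes of proliferation, adhesion and the cytoskeleton, among them Ccn1, Ccn2 and Ankrd1. After a toxic injury surviving hepatocytes enter the cell cycle and reduce many of their metabolic functions, and YAP activity has been linked to both. The design asks whether these responses need YAP and TAZ in the hepatocyte.

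Total counts ran from 1617761 to 3028951 per library, with 11281 to 14879 genes detected. All 12 hepatocyte-defining genes of the list were tested, and their summed level was 86927 to 194942 CPM (counts scaled to library size) over the libraries. Replicates varied more without injury (coefficient of variation 0.407) than with it (0.245). One library stood apart: ctrl replicate 1 had a macrophage and Kupffer cell marker sum of 3935 CPM, where the other ctrl libraries had 707 and 964, and 1612 CPM of erythroid markers, the highest of the 12 libraries. Pancreatic acinar RNA reached 2024 CPM in ctrl replicate 1, 7285 in Yap/Taz KO replicate 1, and 2377 and 9107 in 2 of the 3 Yap/Taz KO + CCl4 libraries, against at most 342 elsewhere. Results whose sign turned without ctrl replicate 1, or that moved by over 1.5 times, are given with and without it for lists and genes named by rule. The plot of list medians shows every list of at least 5 tested genes both ways. Genes picked after their values were seen are given with all 12 libraries only.

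The targeted genes were read first, although a 3' tag outside the floxed exons would not show their loss. Yap1 stood at 40.3, 61.9 and 71.8 CPM in ctrl, 53.5, 50.6 and 65.7 in ctrl + CCl4, 22.2, 9.65 and 14.9 in Yap/Taz KO and 14.8, 14.2 and 14.4 in Yap/Taz KO + CCl4. All 6 knockout libraries were below all 6 control libraries, and within a genotype the injured and uninjured ranges overlapped. The interaction of Yap1 was -0.07 (SE 0.42, 95% interval -0.97 to 0.83), near 0 but with an interval that spans almost 1 log2 unit either way. Wwtr1 went from 57.6, 24.2 and 34.8 CPM in ctrl to 33.7, 32.6 and 34.8 after injury, and from 15.7, 10.1 and 18.3 in Yap/Taz KO to 25.3, 19.9 and 24.8. Its 3 injured knockout libraries were all above the 3 uninjured ones, which was not so in controls. The interaction was 0.87 (SE 0.45, edgeR adjusted p = 0.630), not past the threshold, and 0.45 without ctrl replicate 1.

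No gene passed the threshold for the interaction. Among 10780 tested genes edgeR's quasi-likelihood test called 0 (0.00%), with a smallest Benjamini-Hochberg adjusted p of 0.490. At an unadjusted p under 0.05 there were 874 genes (8.11%), 489 with a positive interaction (4.54%) and 385 with a negative one (3.57%). DESeq2 called 12 genes (0.111%) and limma-voom 0, with or without weights. Without a filter on low counts edgeR called 115 of 19259 genes (0.597%), 100 of them positive, with pancreatic or haemoglobin genes such as Reg2, Ctrb1 and Hbb-bs at the smallest p. All of the 115 but Gm10036 had also passed the filter, so these were mostly the same genes in another fit. Genes named below were among them, such as Notum, Tat, Cyp3a11, Cyp2e1, Pck1 and Apob. Tat had an edgeR adjusted p of 2.03e-10 without the filter and 0.533 with it. What moved the p-values was not tested. The 95% interval of an interaction, which is not adjusted for the number of genes, reached a median of 1.14 log2 units either side of the estimate. Even without adjustment, differences of up to about 2-fold could not be told from 0 for most genes. The adjusted threshold asked for more: Notum, with an interaction of 3.11, had an edgeR adjusted p of 0.490. Of the 874 genes, 623 (71.3%) differed more between genotypes in uninjured than in injured libraries, against 58.6% of all genes. The genotypes differed at an unadjusted p under 0.05 in 1020 genes (9.46%) without injury and in 613 (5.69%) with it.

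Both genotypes responded to injury. In controls 2427 genes (22.5%) changed, 1137 up (10.5%) and 1290 down (12%), and in knockouts 1916 (17.8%), 1016 up (9.42%) and 900 down (8.35%). Scaled by library totals, the balance shifted to 1974 up and 698 down in controls and to 1814 up and 406 down in knockouts. Changes are therefore relative to the bulk of genes. The median interaction over all genes, 0.07, was not moved by this choice, but it was -0.05 without ctrl replicate 1. Of the changed genes 1337 (12.4%) were called in the same direction in both genotypes, 673 up (6.24%) and 664 down (6.16%), which is 55.1% of the control calls and 69.8% of the knockout calls. Another 1089 were called in controls only and 578 in knockouts only. Being called in 1 genotype is not a test of the difference between genotypes: 90.2% and 87.4% of them had the same sign in the other genotype, and the interaction had an unadjusted p under 0.05 in 26.8% of either group, with no call in edgeR after the low-count filter. DESeq2 called some of them for the interaction, among them Notum, Nipal1, Leap2 and Smarcc1 of the first group and Fkbp11 and Plac8 of the second. Across all tested genes the 2 responses correlated with Pearson's r = 0.777, a description over genes, which are not independent replicates.

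**Figure D1:**
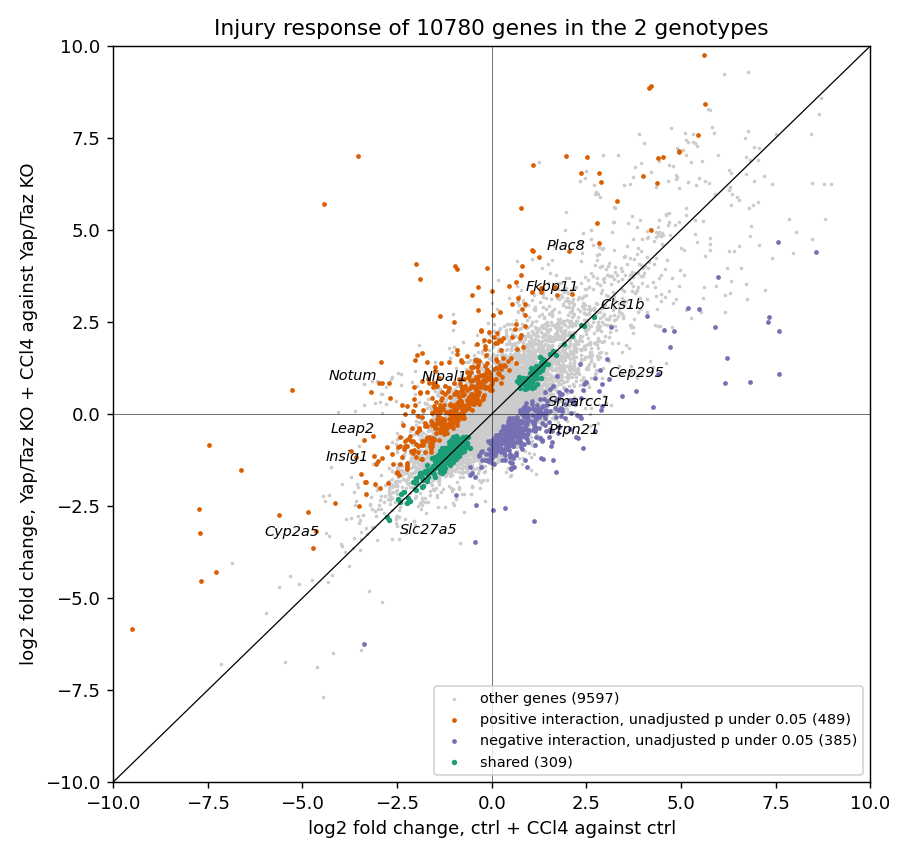
Each point is 1 of 10780 tested genes, with its log2 fold change after CCl4 in control (horizontal) and in Yap/Taz knockout hepatocytes (vertical), and the line marks equal responses. The 489 and 385 genes with an unadjusted interaction p under 0.05 lie above and below the line, none past the adjusted threshold, and the 309 genes with shared responses lie along it.

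The 12 genes ranked highest for a positive interaction, among those with at least 20 CPM in 1 group, came from 2 patterns: a fall in controls that was smaller in knockouts, and a rise in knockouts from a lower uninjured level. The order is a ranking by unadjusted p and not a set of edgeR calls. Notum encodes a secreted enzyme that inactivates Wnt proteins and is a gene of the pericentral zone. It stood at 24.3, 60.9 and 44.8 CPM in ctrl and 6.59, 5.80 and 7.73 in ctrl + CCl4, against 28.2, 19.3 and 11.9 in Yap/Taz KO and 18.6, 26.9 and 34.2 in Yap/Taz KO + CCl4. The injured controls were below every other library, while injured and uninjured knockouts overlapped. Notum fell by 2.68 on the log2 scale in controls (SE 0.40, edgeR adjusted p = 0.000305) and had a log2 fold change of 0.43 (SE 0.38, edgeR adjusted p = 0.478) in knockouts. Its interaction of 3.11 (SE 0.55, 95% interval 1.93 to 4.29) was the first in the ranking, with an edgeR adjusted p of 0.490 and a DESeq2 adjusted p of 0.00254. It ranged from 2.77 to 3.44 over 21 alternatives. Notum lies on chromosome 11 from 120653788 to 120661175 on the minus strand of GRCm38.

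Nipal1, of a family of magnesium transporters, had 165, 66.9 and 149 CPM in ctrl and 39.2, 16.8 and 25.1 after injury. In knockouts it had 40.1, 47.3 and 33.6 CPM before and 42.9, 49.3 and 48.4 after injury. Only the uninjured controls were high, and the uninjured knockouts reached at most 47.3 CPM, under the lowest ctrl library. The interaction was 2.45 (SE 0.48; adjusted p 0.490 in edgeR, 0.0105 in DESeq2). Leap2, which encodes a liver peptide that blocks the ghrelin receptor, went from 111, 104 and 127 CPM to 31.1, 17.7 and 14.8 in controls. In knockouts it went from 74.2, 117 and 72.4 to 56.8, 55.6 and 59.7 CPM. All 3 injured knockout libraries were above all 3 injured controls. Leap2 fell by 2.43 (SE 0.28, edgeR adjusted p = 3.7e-05) in controls, had a log2 fold change of -0.62 (SE 0.27, edgeR adjusted p = 0.133) in knockouts and an interaction of 1.81 (SE 0.39; adjusted p 0.533 in edgeR, 0.0323 in DESeq2).

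Insig1, Igfbp2 and Cyp2a5 fell in both genotypes. Insig1, which retains the sterol-sensing SREBP complex in the endoplasmic reticulum, had 98.7, 109 and 154 CPM in ctrl, 28.6, 14.3 and 21.9 in ctrl + CCl4, 83.9, 53.6 and 80.9 in Yap/Taz KO and 40.7, 36.0 and 41.5 in Yap/Taz KO + CCl4. The injured knockouts were above the injured controls without overlap, and the uninjured knockouts below the uninjured controls. Its fall was 2.48 (SE 0.28) in controls and 0.88 (SE 0.27) in knockouts on the log2 scale. The insulin-like growth factor binding protein gene Igfbp2 had an interaction of 1.54 (SE 0.39), and Cyp2a5, a coumarin hydroxylase, one of 2.90 (SE 0.70), with 11, 3.66 and 4.19 CPM in injured controls against 19.9, 66.7 and 111 in injured knockouts. Cyp2a5 shares sequence with its paralogs, and its counts could be split between them. Mtln, a mitochondrial micropeptide, fell in controls (log2 fold change -1.32, SE 0.31) with an interaction of 1.76 (SE 0.44).

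Fkbp11, Plac8, Serpina7, Psph and Ube2c showed the second pattern. Fkbp11, a folding enzyme of the endoplasmic reticulum, had 13.2, 12.6 and 28.4 CPM in ctrl and 2.17, 5.31 and 5.54 in Yap/Taz KO. After injury it had 27.5, 23.8 and 35.1 CPM in controls and 37.6, 37.3 and 43.3 in knockouts. The uninjured knockouts were the 3 lowest libraries and the injured knockouts the 3 highest. It rose by 3.15 in knockouts (SE 0.40, edgeR adjusted p = 0.00011), and its interaction was 2.44 (SE 0.53). Plac8, which is also on the monocyte marker list, rose by 4.26 (SE 0.57) in knockouts and had a log2 fold change of 1.26 (SE 0.45, edgeR adjusted p = 0.0599) in controls. Serpina7, the thyroxine-binding globulin gene, and Psph, the last enzyme of serine synthesis, rose in knockouts by 2.77 (SE 0.47) and 3.79 (SE 0.61), and neither passed in controls. All 4 had an edgeR adjusted interaction p of 0.533, and DESeq2 called Fkbp11 and Plac8 (adjusted p = 0.0340 for both).

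In all 12 genes ranked highest for a negative interaction the uninjured knockouts had a higher level than the uninjured controls, a difference that is itself a component of the interaction. Smarcc1, a core subunit of the SWI/SNF chromatin remodelling complex, had 25.9, 29.7 and 24.9 CPM in ctrl and 63.7, 70.8 and 63.1 in ctrl + CCl4. In Yap/Taz KO it had 54.1, 59.4 and 54.9 CPM and after injury 49.9, 57.5 and 63.1. The uninjured controls were low, and injured and uninjured knockouts overlapped. The gene lies on chromosome 9 from 110117708 to 110240178 on the plus strand. Smarcc1 rose by 1.29 (SE 0.20, edgeR adjusted p = 0.000349) in controls and had a log2 fold change of 0.02 (SE 0.19, edgeR adjusted p = 0.967) in knockouts. Its interaction was -1.28 (SE 0.28; adjusted p 0.533 in edgeR, 0.0496 in DESeq2) and ranged from -1.36 to -1.20 over 21 alternatives. H1f4, a linker histone, had 17.3, 22.6 and 20.6 CPM in ctrl against 46.0, 47.8 and 40.0 in Yap/Taz KO, and 110, 66.5 and 79.9 in ctrl + CCl4 against 76.7, 66.0 and 65.0 in Yap/Taz KO + CCl4. The uninjured groups were apart and the injured groups overlapped. The interaction of H1f4 was -1.45 (SE 0.33).

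Of the other genes in this ranking, Usp16 removes ubiquitin from histone H2A (interaction -1.36, SE 0.31), Wapl releases cohesin from chromosomes (-1.13, SE 0.27; DESeq2 adjusted p = 0.0499), and Nup50 belongs to the nuclear pore (-1.18, SE 0.31). Cep83 and Cep295 are centriole proteins (-1.78, SE 0.41 and -2.08, SE 0.57), and Cep295 rose from 3.29, 5.03 and 2.13 CPM to 26.4, 28.4 and 26.1 in controls, while knockouts stood at 13, 5.31 and 13.6 before and 15.2, 21.2 and 20.1 after injury. Its knockout libraries lay between the uninjured and injured controls. Atf6, a transcription factor of the unfolded protein response, fell in knockouts by 1.11 (SE 0.21, edgeR adjusted p = 0.00215) from 87.2, 86.9 and 74.5 to 37.2, 43.6 and 34.2 CPM, with 37.8, 51.3 and 47.6 in ctrl and 45.8, 43.0 and 55.4 in ctrl + CCl4. Only the uninjured knockouts were high. Ppm1l, a protein phosphatase gene, fell in both genotypes, by 0.93 (SE 0.23) in controls and 2.19 (SE 0.23) in knockouts, the one fall among the 12 that passed in both. Akap11, Ptpn21 and Cdk13 had interactions of -1.25 (SE 0.31), -2.05 (SE 0.54) and -1.35 (SE 0.36). All 12 had an edgeR adjusted p of 0.533.

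The interaction moved with transcript length. Genes were divided into 4 classes of equal size by their longest annotated transcript (GENCODE M21, 98.6% of tested genes matched), a description added after the data were seen. The median interaction was 0.33 in the shortest class (67 to 2189 nucleotides), 0.15 and -0.01 in the middle classes and -0.24 in the longest (4866 nucleotides and more). The share with a positive interaction fell from 70.2% to 35.6%. Of genes with an unadjusted p under 0.05, 212 were positive and 31 negative in the shortest class, and 36 positive and 192 negative in the longest. Leaving out each library in turn kept this order of the 4 medians in every case, with 0.22 to 0.36 in the shortest and -0.34 to -0.18 in the longest class. The longest transcript had a median of 2202 nucleotides among the 12 top positive genes and 6351 among the 11 top negative genes with a length. The part of length in the results for single genes was not tested.

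**Figure D2:**
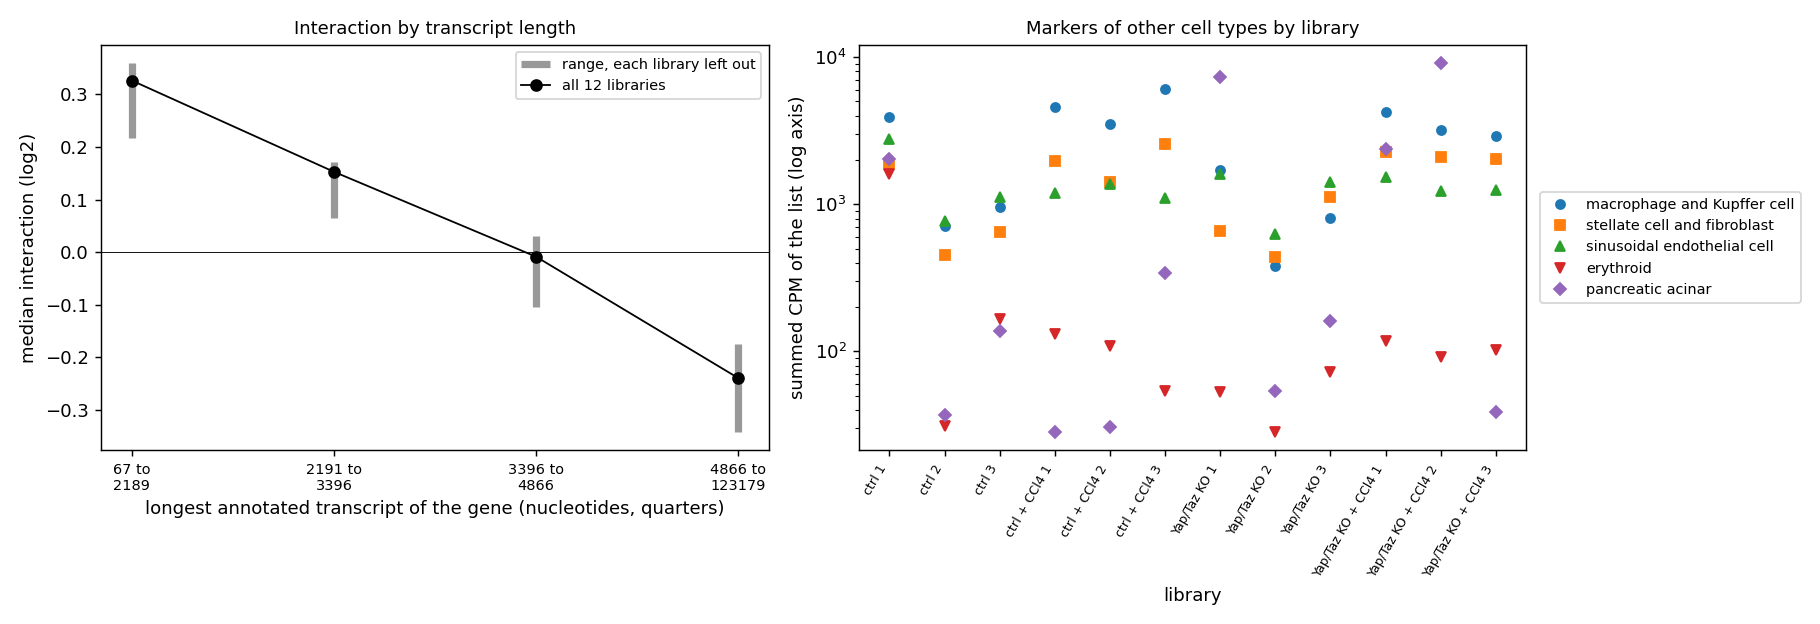
Left, the median interaction (log2) in 4 classes of genes by longest annotated transcript, with the range when each library is left out in turn; it goes from 0.33 in the shortest to -0.24 in the longest class. Right, the summed CPM of 5 marker lists of other cell types in each library on a log axis; ctrl replicate 1 is high in all 5 against the other ctrl libraries.

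**Figure D3:**
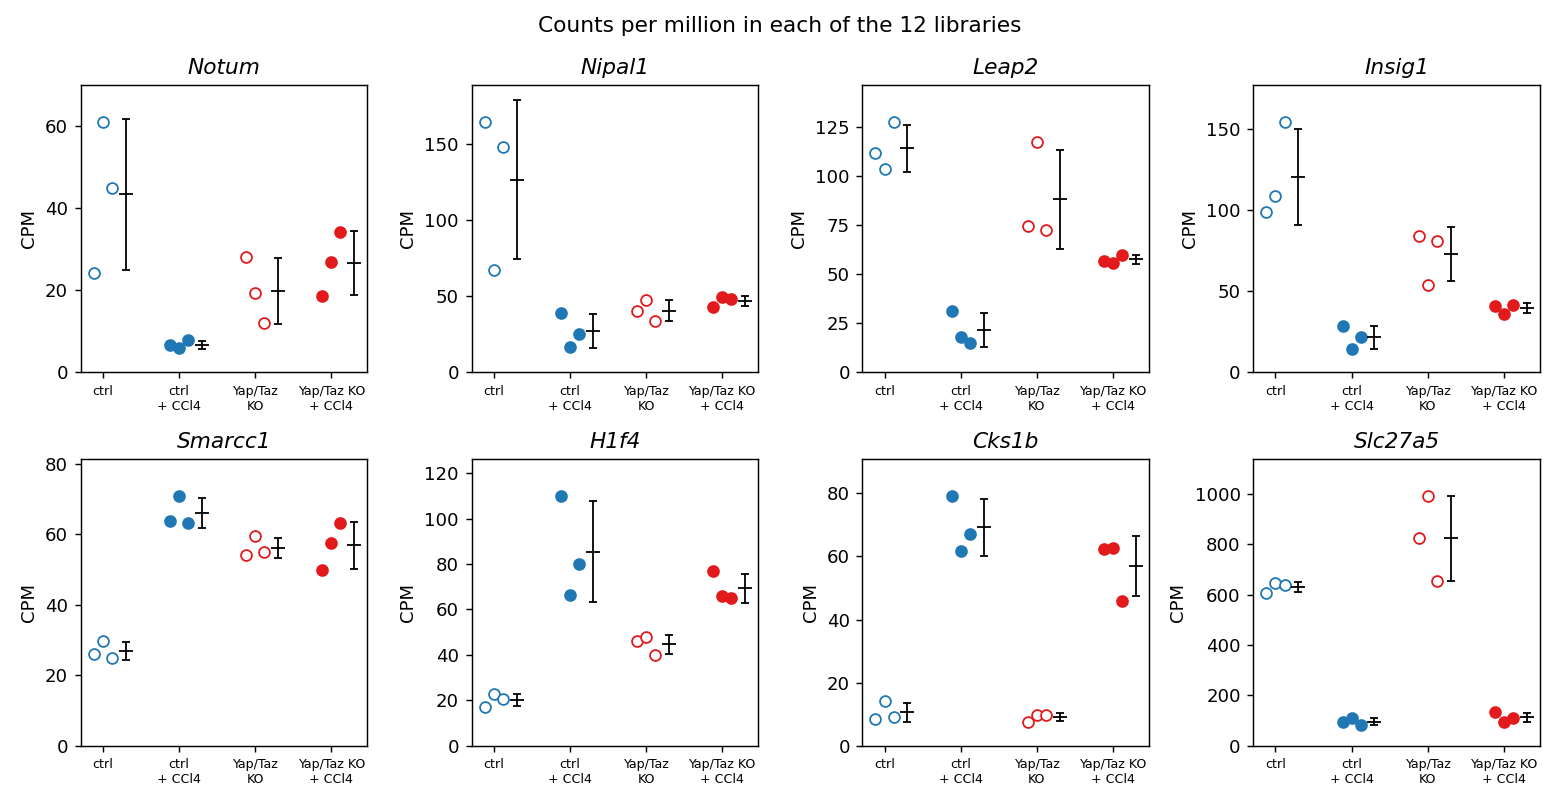
CPM of 8 genes in each library, open circles uninjured and filled circles injured, blue control and red knockout, with the mean and SD of 3 libraries beside them. Notum, Nipal1, Leap2 and Insig1 have positive and Smarcc1 and H1f4 negative interactions, and Cks1b and Slc27a5 are shared responses.

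A response was counted as shared when it was called in the same direction in both genotypes and the 95% interval of its interaction lay inside 1 log2 unit either way. Shared responses numbered 309 (2.87% of tested genes), 78 rises and 231 falls, which is 23.1% of the genes called in both. Over all genes the interval lay inside these bounds in 1534 (14.2%), so most genes were measured too loosely to be placed. Falls met the bounds more often (34.8% of those called in both) than rises (11.6%). With bounds of 0.6 in place of 1, 3 genes remained.

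Among shared falls, ranked by the size of the mean response of the 2 genotypes, the first was Slc27a5, which activates bile acids for conjugation. It went from 605, 644 and 639 CPM to 94.5, 112 and 82.2 in controls and from 825, 990 and 654 to 133, 95.4 and 110 in knockouts. The injured libraries of both genotypes overlapped and were far below every uninjured library. Slc27a5 fell by 2.71 (SE 0.21) and 2.87 (SE 0.21) on the log2 scale, with an interaction of -0.16 (95% interval -0.79 to 0.48). Lipc, hepatic lipase, fell by 2.41 and 2.38 (interaction 0.03, interval -0.65 to 0.71), and Cdo1, cysteine dioxygenase, by 2.22 and 2.28 (-0.06, interval -0.68 to 0.57). Slc27a5, Lipc and Cdo1 kept an interval inside the bounds in 21 of 21 alternatives, Abat and Sardh in 20, Gabarapl1 in 19, Aldh1l1 in 17, Ces1e in 16, Cat in 14 and Sult1a1 in 8. The folate enzyme Aldh1l1 (-0.04), the autophagy gene Gabarapl1 (0.17), the carboxylesterase Ces1e (-0.18), the GABA transaminase Abat (0.22), sarcosine dehydrogenase Sardh (-0.22), catalase (Cat, 0.22) and the sulfotransferase Sult1a1 (-0.01) followed, given with their interactions.

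Among shared rises Cks1b, which binds cyclin-dependent kinases, was first. It went from 8.64, 14.1 and 9.24 CPM to 79.1, 61.6 and 67.0 in controls and from 7.58, 9.65 and 9.79 to 62.5, 62.6 and 45.8 in knockouts. Uninjured libraries of both genotypes overlapped, as did the injured ones. Cks1b rose by 2.69 (SE 0.26) and 2.65 (SE 0.27), with an interaction of -0.04 (interval -0.84 to 0.75). Ezh2, the methyltransferase of Polycomb complex PRC2 (-0.07), the tubulin Tubb5 (0.07), thymidine kinase Tk1 (0.08) and the single-strand DNA binding protein Rpa1 (-0.13) were also shared. So were Lrg1, an acute phase glycoprotein (-0.01), Jpt2 (0.07), and Dnajc10, a disulfide reductase of the endoplasmic reticulum (0.11, interval -0.54 to 0.75), which stayed inside the bounds in 21 of 21 alternatives. Cd93 (-0.01) and Lcp1 (-0.10) mark endothelial or blood cells, and whether their rise came from hepatocytes was not tested. Among the other named rises the interval stayed inside the bounds in 15 of 21 alternatives for Tubb5, 13 for Lrg1 and Lcp1, 12 for Cks1b, 10 for Ezh2, 9 for Rpa1, 8 for Tk1, 7 for Cd93 and 6 for Jpt2.

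**Figure D4:**
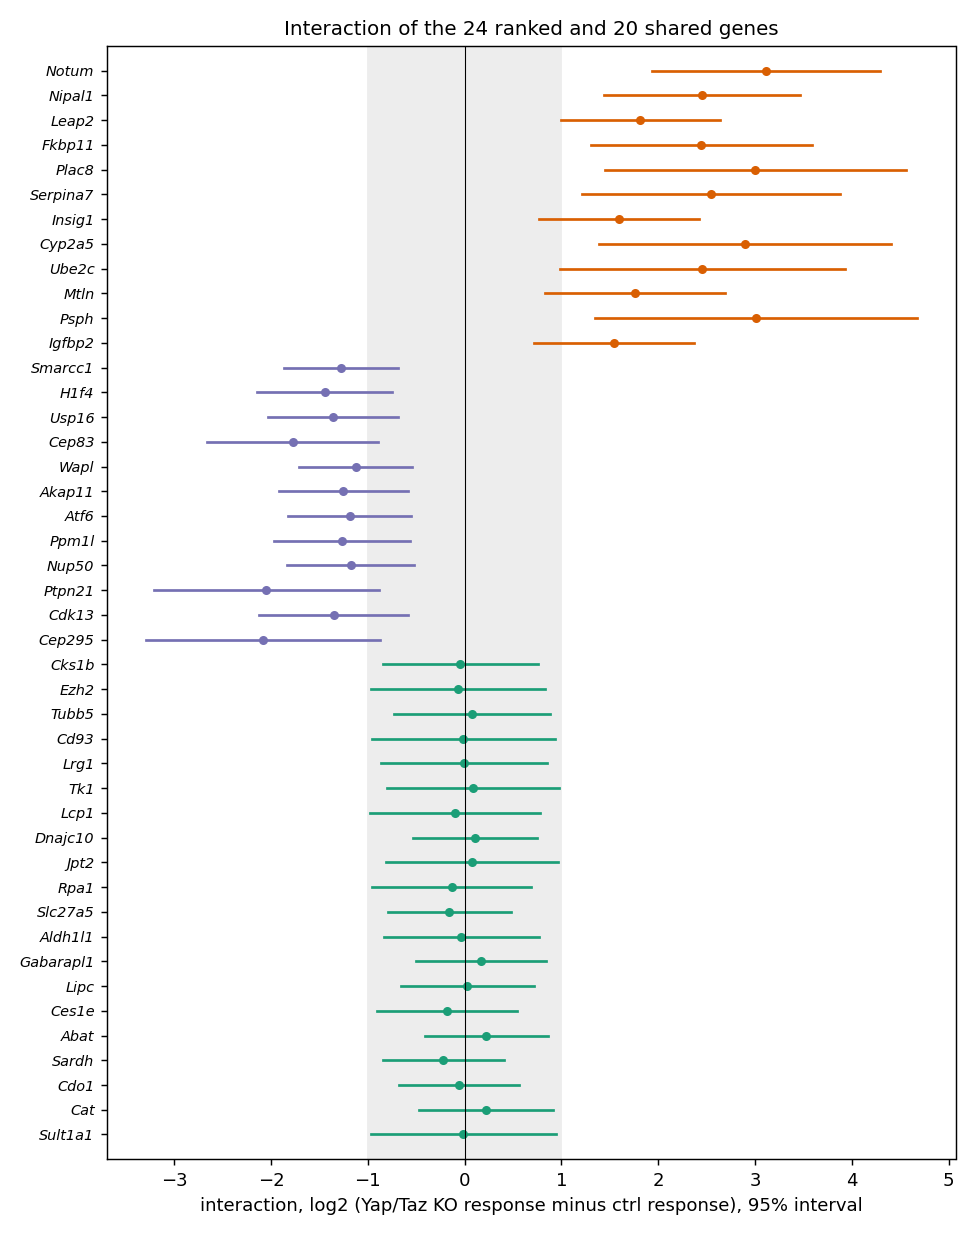
Interaction in log2 units with its 95% interval for the 12 genes ranked highest in each direction (orange positive, purple negative) and the 20 shared genes (green), with the band of 1 log2 unit either way shaded. The intervals of the shared genes lie inside the band because that is how they were chosen.

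To ask which responses were weaker, genes were taken by their mean response over both genotypes, a contrast that weights both genotypes alike. That response was called in 3558 genes (33.0%), 1815 up (16.8%) and 1743 down (16.2%). Falls were smaller in knockouts for 68.4% of the 1743 genes, with a median interaction, signed so that below 0 is weaker, of -0.25. Rises were smaller for 48.3% of the 1815 genes, with a median of 0.04. A weaker fall is a positive interaction, which 53.9% of all tested genes had, and a weaker rise a negative one. Among falls with an unadjusted interaction p under 0.05, 150 were weaker and 26 stronger in knockouts, and among rises 94 and 83. Among all tested genes at that p, 489 interactions were positive and 385 negative. Over all alternatives falls were weaker in 62.8% to 73.3% of genes. The figure for rises rests on ctrl replicate 1: without it 73.1% of rises were weaker, with a median of -0.56, and falls stayed at 73.3% with a median of -0.34. Both went with transcript length: falls were weaker in 81.1% of genes in the shortest and 49.4% in the longest class, and rises in 35.5% and 66.3%.

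Of 40 tested genes of amino acid catabolism 36 fell in controls and 33 in knockouts, 30 in both, where 12% and 8.35% of all tested genes fell. The interaction was positive in 32 of the 40, against 53.9% of all genes, with an unadjusted p under 0.05 in 7 positive and 0 negative members, and a median of 0.47 against 0.07 over all genes. Tat, tyrosine aminotransferase, had 673, 372 and 1650 CPM in ctrl, 56.8, 47.3 and 99.6 in ctrl + CCl4, 717, 435 and 263 in Yap/Taz KO and 113, 133 and 466 in Yap/Taz KO + CCl4. Injured knockouts were above injured controls, and in knockouts the injured and uninjured ranges overlapped. Tat fell by 3.72 (SE 0.58, edgeR adjusted p = 0.000803) in controls and did not pass in knockouts (log2 fold change -0.99, SE 0.57, edgeR adjusted p = 0.271). Its interaction was 2.73 (SE 0.81, edgeR adjusted p = 0.533), and 1.77 without Yap/Taz KO + CCl4 replicate 3. Aass, of lysine breakdown, fell by 2.43 and 1.35 with an interaction of 1.08 (SE 0.41).

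Of 39 cytochrome P450 and monooxygenase genes 28 fell in controls and 23 in knockouts, all 23 also in controls, and 1 rose in knockouts; the interaction was positive in 28, with a median of 0.49. Cyp2e1, the enzyme that activates CCl4, went from 945, 2049 and 3206 CPM to 104, 44.2 and 101 in controls and from 2097, 2115 and 1568 to 226, 277 and 141 in knockouts. The injured knockouts were all above the injured controls. Cyp2e1 fell by 4.63 (SE 0.40) and 3.16 (SE 0.40), with an interaction of 1.47 (SE 0.56). Cyp3a11, which oxidises many drugs and steroids, fell by 1.89 (SE 0.46) in controls, had 0.60 (SE 0.46) in knockouts and an interaction of 2.48 (SE 0.65). Of 32 phase II conjugation genes 23 fell in controls and 18 in knockouts, where 1 rose, and 28 had a positive interaction (median 0.51). Mgst1, a microsomal glutathione transferase, and Ugt3a2 had interactions of 1.35 (SE 0.59) and 1.25 (SE 0.51), and that of Mgst1 was 0.57 without ctrl replicate 3.

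Genes of both zones of the liver lobule fell, and the difference between the zones was not tested. Of 24 periportal genes 18 fell in controls and 13 in knockouts, where 1 rose, 21 had a positive interaction and the median was 0.43. Of 29 pericentral genes, the zone that CCl4 damages, 20 fell in controls and 18 in knockouts, 18 had a positive interaction, a share not far above the 53.9% of all genes, and the median was 0.37. Pck1, of gluconeogenesis, went from 2085, 2497 and 2989 to 192, 253 and 308 CPM in controls and from 2575, 3601 and 1009.7 to 348, 565 and 1075 in knockouts. The injured knockouts were above the injured controls, and 1 of them was above the lowest uninjured knockout. Pck1 had an interaction of 1.48 (SE 0.59), or 0.94 without Yap/Taz KO + CCl4 replicate 3, and the periportal glutaminase Gls2 one of 0.93 (SE 0.41). Of 24 cholesterol genes 18 fell in controls and 8 in knockouts, 7 in both, with 19 positive interactions (median 0.27) and Tm7sf2, a sterol reductase, at 1.51 (SE 0.51).

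Of 40 plasma protein genes 30 fell in controls and 20 in knockouts (31 positive, median 0.34), with 13 shared. The corticosteroid carrier gene Serpina6 fell in both by 4.71 and 3.63 (interaction 1.08, SE 0.35), and Apob, the largest apolipoprotein, was among the negative ones at -1.57 (SE 0.56). The medians were 0.18 for bile acid genes, 0.17 for fatty acid synthesis, 0.15 for fatty acid oxidation, 0.31 for glycolysis and gluconeogenesis and 0.31 for the acute phase. Without ctrl replicate 1 they were 0.38, 0.06, 0.34, 0.13 and 0.16 in the same order. Scd1, the stearoyl desaturase, fell by 2.45 in controls and 3.40 in knockouts (interaction -0.94, SE 0.46), against the direction of its list. Among 32 hepatocyte transcription factor genes 19 had a negative interaction (median -0.14), with Ppara, the receptor that drives fatty acid oxidation, at -0.87 (SE 0.39) and Prox1 at -0.81 (SE 0.41), both called down in knockouts and not in controls. Ppara was at -0.55 without Yap/Taz KO replicate 2 and Prox1 at -1.22 without ctrl replicate 2. That median turned to 0.05 without ctrl replicate 1, and that of fatty acid oxidation to -0.02 without ctrl replicate 3. The medians of the amino acid, P450, phase II, periportal, pericentral, cholesterol and plasma protein lists kept their sign in all 21 alternatives, from 0.14 to 0.71. These lists hold shorter transcripts than the median tested gene (3396 nucleotides), except cholesterol. Measured against the median of each gene's length class, the list medians were 0.31 for amino acid catabolism, 0.20 for P450, 0.28 for phase II, 0.36 for periportal, 0.23 for pericentral, 0.21 for cholesterol and 0.09 for plasma protein genes.

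**Figure D5:**
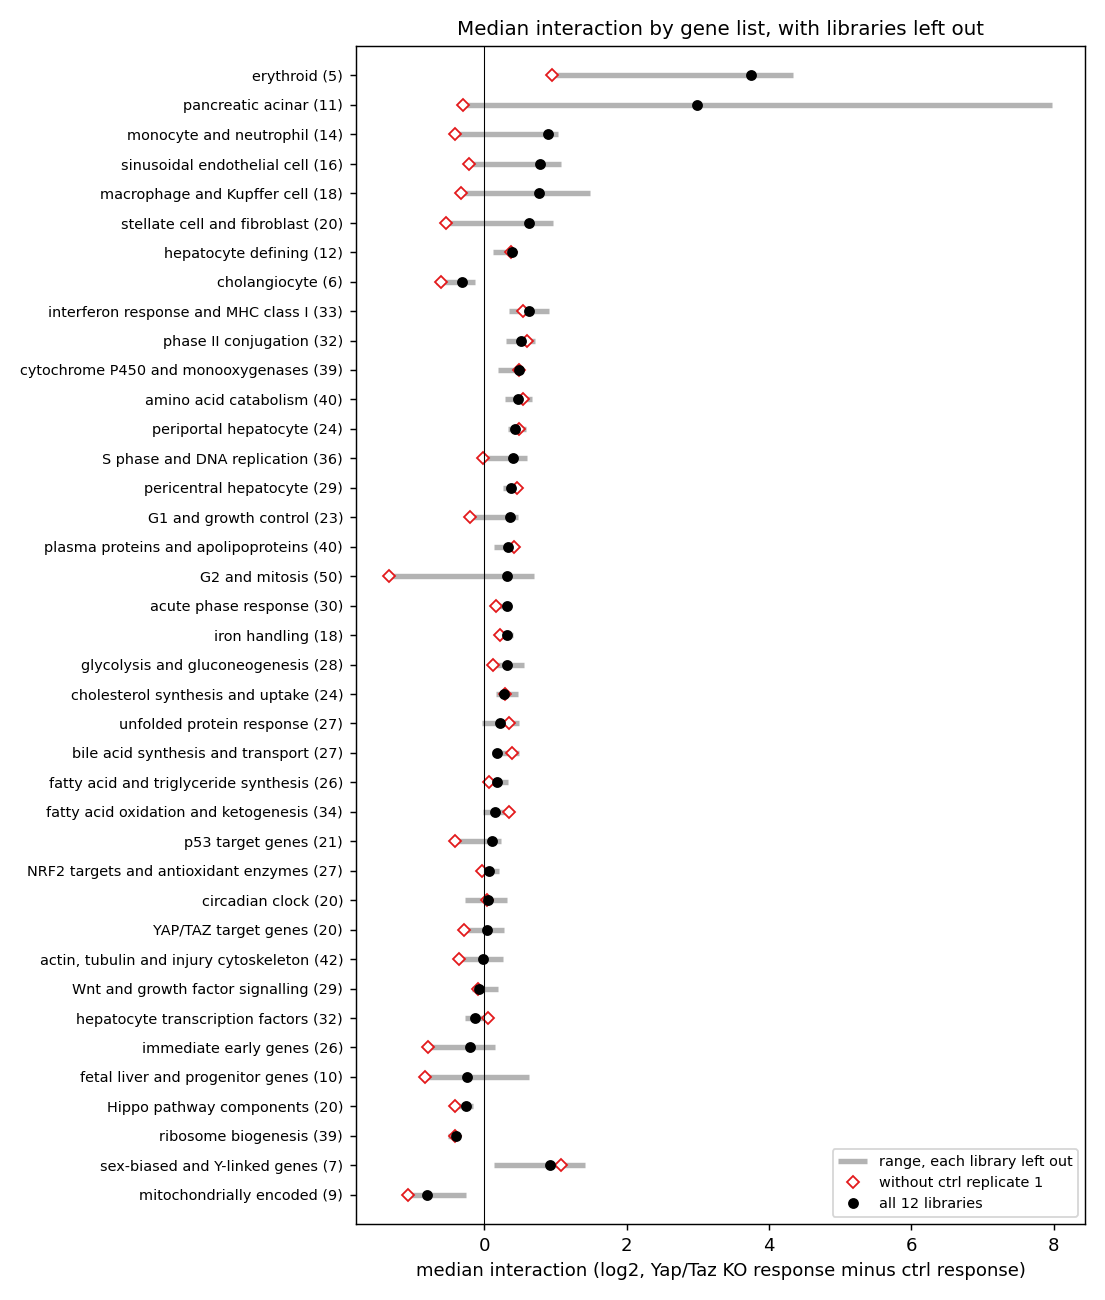
Median interaction (log2) of each gene list with at least 5 tested genes (number tested in brackets): circles for all 12 libraries, diamonds without ctrl replicate 1, bars for the range when each library is left out in turn. The metabolic lists stay above 0 in most cases, while G2 and mitosis moves from 0.32 to -1.34 and the macrophage, stellate, endothelial and monocyte lists change sign without ctrl replicate 1.

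Cell cycle genes rose in both genotypes. Of 50 tested G2 and mitosis genes 49 rose in controls and 49 in knockouts, the same 49, with a median log2 fold change of 5.40 and 6.18 (5.12 and 5.88 with genes absent from a group at their bound of 3 counts). Of 36 S phase genes 30 rose in controls and 31 in knockouts, 28 in both, with medians of 2.77 and 2.86. The interaction was positive in 31 of the 50 and 28 of the 36, with medians of 0.32 and 0.40. Without ctrl replicate 1 the medians became -1.34, with 11 of 50 positive, and -0.03, with 17 of 36 positive. Under limma-voom with sample quality weights the G2 and mitosis median was -0.12. After injury the median difference between knockouts and controls was -0.39 for G2 and mitosis and 0.05 for S phase genes. These 2 medians are over the 40 and 35 genes with counts in all 4 groups.

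The promoters of 4 genes are shown for the letters they hold: Top2a and Smc2 stand for mitotic genes with a CHR element, the site by which such genes are repressed in resting cells, and Wwtr1 and Ccn1 for the TEAD letters. Top2a and Smc2 were picked after their values were seen, because their windows hold the letters and overlap no annotated exon. Sequences are the 250 bases before the most upstream RefSeq start (GRCm38.p6), 5′ to 3′ on the gene's strand: Top2a chr11:99024190-99024439 (minus), Smc2 chr4:52438971-52439220 (plus), Wwtr1 chr3:57575911-57576160 (minus) and Ccn1 chr3:145649986-145650235 (minus). Capitals mark TTTGAA, the CHR letters, or CATTCC, the TEAD letters, on either strand.
Top2a: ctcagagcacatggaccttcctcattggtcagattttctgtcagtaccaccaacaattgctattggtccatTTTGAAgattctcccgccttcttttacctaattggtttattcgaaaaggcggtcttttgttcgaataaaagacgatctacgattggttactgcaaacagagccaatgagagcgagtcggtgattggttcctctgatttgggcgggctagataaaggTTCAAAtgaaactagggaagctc
Smc2: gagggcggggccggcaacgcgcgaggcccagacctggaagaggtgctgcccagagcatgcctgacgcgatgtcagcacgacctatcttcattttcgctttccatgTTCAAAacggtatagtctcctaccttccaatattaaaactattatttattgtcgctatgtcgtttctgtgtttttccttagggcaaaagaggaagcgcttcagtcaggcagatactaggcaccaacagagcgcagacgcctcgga
Wwtr1: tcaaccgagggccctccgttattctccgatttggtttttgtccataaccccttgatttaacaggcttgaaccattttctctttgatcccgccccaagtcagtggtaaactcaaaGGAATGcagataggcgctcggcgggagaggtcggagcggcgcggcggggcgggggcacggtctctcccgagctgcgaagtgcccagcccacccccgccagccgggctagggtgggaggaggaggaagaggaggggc
Ccn1: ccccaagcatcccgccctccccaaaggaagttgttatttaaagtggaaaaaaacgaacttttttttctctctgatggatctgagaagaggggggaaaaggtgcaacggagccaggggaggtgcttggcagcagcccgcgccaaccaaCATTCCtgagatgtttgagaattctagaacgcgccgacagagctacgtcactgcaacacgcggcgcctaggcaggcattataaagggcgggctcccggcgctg

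Both strands were searched, and the letters of the 2 motifs do not contain each other. The TTTGAA letters stood in 12 of 40 G2 and mitosis promoters with an entry (30.0%), 4 of 32 S phase promoters (12.5%) and 16.3% of all 27025 promoters, and in 10.9% of the 8588 promoters of tested genes. Among genes with an unadjusted interaction p under 0.05 and a promoter, TTTGAA stood in 15.5% of 401 positive and 11.9% of 303 negative ones, and CATTCC in 12.2% and 8.25%, with 10.4% among tested genes. A match is a description of letters and not a bound site. Top2a, topoisomerase II, had 27.6, 3.52 and 3.55 CPM in ctrl and 461, 429 and 388 in ctrl + CCl4, and in knockouts 13, 2.90 and 5.11 before and 332, 342 and 211 after injury. Injured knockouts were all below injured controls. Smc2, of condensin, had 16, 18.6 and 6.40 CPM in ctrl, 238, 231 and 201 in ctrl + CCl4, 16.2, 8.20 and 11.9 in Yap/Taz KO and 162, 205 and 122 in Yap/Taz KO + CCl4. Injured knockouts overlapped with injured controls. The interactions of Top2a and Smc2 with all 12 libraries were 0.30 (SE 0.84) and -0.24 (SE 0.47). For Top2a this rests on ctrl replicate 1, at 27.6 CPM against 3.52 and 3.55 in the other ctrl libraries. Its interaction without that library is not given here.

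Ube2c, which helps the anaphase-promoting complex degrade mitotic cyclins, and Cdca8, of the chromosomal passenger complex, were the G2 and mitosis genes with the smallest interaction p. Ube2c went from 6.58, 4.03 and 3.55 to 116, 136 and 90.5 CPM in controls and from 0.541, 0.483 and 0.852 to 99.4, 102 and 59.98 in knockouts. The uninjured knockouts were below the uninjured controls, while after injury the groups overlapped. The interaction of Ube2c was 2.45 (SE 0.69) and that of Cdca8 2.48 (SE 0.77), with uninjured knockout minus control differences of -2.84 and -2.83. These differences rest on few reads. Over all uninjured libraries Ube2c had 29 counts in ctrl and 4 in Yap/Taz KO, and Cdca8 28 and 4. Without Yap/Taz KO replicate 1 the interaction of Cdca8 was 3.81. Of 23 genes of G1 and growth control 13 rose in controls and 11 in knockouts, 14 had a positive interaction and the median was 0.36 (-0.21 without ctrl replicate 1). E2f2, a driver of S phase entry, rose in controls (2.72, SE 0.50) and not past the threshold in knockouts (0.98, SE 0.45, edgeR adjusted p = 0.155), with an interaction of -1.74 (SE 0.67), or -0.75 without Yap/Taz KO replicate 3. Of 21 p53 target genes 4 rose and 1 fell in controls and 2 rose and 2 fell in knockouts. Among all tested genes 10.5% rose and 12% fell in controls, and 9.42% rose and 8.35% fell in knockouts. Of the 21, 11 had a positive interaction and the median was 0.11 (-0.41 without ctrl replicate 1). Bbc3, a promoter of apoptosis, fell in both genotypes by 2.36 (SE 0.42) and 1.42 (SE 0.42), with an interaction of 0.95 (SE 0.60) that ranged from 0.60 to 1.44. Mdm2, the p53 inhibitor, rose from 23.4, 20.6 and 24.9 to 45.0, 56.1 and 53.2 CPM in controls and had 34.1, 50.7 and 45.1 before and 46.7, 43.3 and 50.6 after injury in knockouts. The uninjured controls stood alone below the other 3 groups. Its interaction was -1.05 (SE 0.31). Cdkn1a, the p21 cell cycle inhibitor, had 128, 26.7 and 19.9 CPM in ctrl and 88.3, 182 and 81.8 in Yap/Taz KO, which overlapped, and -0.87 (SE 0.72) as interaction, which was -2.21 without ctrl replicate 1 and -0.41 without Yap/Taz KO replicate 2.

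The YAP/TAZ target list showed no common direction. Of 20 tested targets 2 rose and 1 fell in controls and 3 rose in knockouts, near the shares of all genes (10.5% up and 12% down in controls, 9.42% up in knockouts), 10 interactions were positive and 10 negative, and the median was 0.04 (-0.28 without ctrl replicate 1). Ccn1, a matricellular protein gene with the TEAD letters shown above, had 12.3, 24.2 and 20.6 CPM in ctrl, 10.6, 40.3 and 12.2 in ctrl + CCl4, 9.75, 6.76 and 2.13 in Yap/Taz KO and 6.94, 6.0 and 13.2 in Yap/Taz KO + CCl4. Injured and uninjured libraries overlapped in both genotypes. The interaction of Ccn1 was 0.35 (SE 0.83, interval -1.42 to 2.13), and its sign turned without either of 2 knockout libraries, replicate 3 of the uninjured or of the injured group. Without ctrl replicate 1 the interaction of Ccn1 was 0.60. Ccn2, of the same family, had 95.4, 0.503 and 2.13 CPM in ctrl, 11.7, 11 and 3.22 in ctrl + CCl4, 4.33, 7.72 and 0.852 in Yap/Taz KO and 7.26, 13 and 18.8 in Yap/Taz KO + CCl4. Only ctrl replicate 1 was high. Its interaction of 3.57 (SE 1.62) became -1.18 without this library.

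Ankrd1, a YAP target of stressed tissue, had at most 8.85 CPM in any library and an interaction of -2.85 (SE 1.36, edgeR adjusted p = 0.614). Amotl2, which binds YAP in the cytoplasm, had an interaction of 0.20 (SE 0.50), which turned to -0.06 without ctrl replicate 1. Igfbp3, an insulin-like growth factor binding protein, fell in controls (2.02 on the log2 scale, SE 0.61) from 48.5, 8.56 and 8.53 CPM. Only ctrl replicate 1 was high, and its interaction of 2.27 (SE 0.87) was 0.88 without that library. Of 20 Hippo pathway genes 16 had a negative interaction (median -0.26, -0.42 without ctrl replicate 1, 5212 nucleotides median transcript). Relative to their length classes the median was -0.06, with 14 genes below and 6 above the median of their class. Mob1b, a co-activator of the LATS kinases, fell in controls (log2 fold change -0.97, SE 0.25) and had -0.25 (SE 0.25, edgeR adjusted p = 0.527) in knockouts. The CATTCC letters stood in 7 of 20 target promoters (35.0%), 10.4% of those of tested genes and 12.6% of all.

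Interferon response genes leaned to a positive interaction and ribosome biogenesis genes to a negative one. Of 33 interferon and MHC class I genes 29 had a positive interaction (median 0.63, ranging from 0.35 without Yap/Taz KO replicate 2 to 0.90 without Yap/Taz KO replicate 1), 6 with an unadjusted p under 0.05. Relative to their length classes the median was 0.41. In controls 4 fell, and in knockouts 3 rose and 1 fell, where 12% of all genes fell in controls and 9.42% rose in knockouts. Psmb9, an immunoproteasome subunit, had 69.1, 25.2 and 51.2 CPM in ctrl, 33.0, 18.6 and 33.2 in ctrl + CCl4, 31.4, 9.65 and 11.1 in Yap/Taz KO and 47.4, 43.6 and 46.8 in Yap/Taz KO + CCl4. The injured knockouts were above both injured controls and uninjured knockouts. Psmb9 rose by 1.42 (SE 0.43, edgeR adjusted p = 0.0352) in knockouts, had -0.78 (SE 0.42) in controls and an interaction of 2.20 (SE 0.60). Of 39 ribosome biogenesis genes 9 rose in controls and 3 in knockouts, 1 in both, where 10.5% and 9.42% of all tested genes rose. Of the 39, 32 had a negative interaction (median -0.40, and -0.51 to -0.36 over the alternatives). Relative to the length classes this median was -0.49.

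Nolc1, a nucleolar chaperone, rose in controls from 25.5, 36.2 and 41.2 to 57.5, 65.3 and 74.4 CPM and had 47.7, 64.7 and 60.04 before and 46.1, 53.7 and 56.5 after injury in knockouts. As with Smarcc1 and Mdm2, the uninjured controls stood below the other groups. The interaction of Nolc1 was -1.09 (SE 0.33). Ebna1bp2, a ribosome assembly factor, went the other way, with a rise of 1.06 (SE 0.25) in knockouts and an interaction of 1.24 (SE 0.35). Among progenitor genes Spp1, osteopontin, rose in both, from 32.1, 10.6 and 17.8 to 345, 291 and 416 CPM in controls and from 16.8, 13.5 and 21.3 to 113, 169 and 46.8 in knockouts. Injured knockouts were all below injured controls. Spp1 rose by 4.10 (SE 0.42) and 2.67 (SE 0.43), and the interaction was -1.43 (SE 0.60, edgeR adjusted p = 0.594). Spp1 is also made by cholangiocytes and macrophages, and their part in its values was not tested. Ly6d rose in both, by 4.94 (SE 0.51) and 7.15 (SE 0.69), with an interaction of 2.21 (SE 0.86). Zfp560, a zinc finger gene, was the only one called in opposite directions: it fell in controls by 2.03 (SE 0.47) from 10.3, 12.6 and 19.9 to 2.93, 2.44 and 4.83 CPM and rose in knockouts by 1.48 (SE 0.50) from 2.17, 3.86 and 2.98 to 6.63, 9.79 and 9.11. The groups did not overlap within either genotype, at levels of under 20 CPM. Its edgeR adjusted interaction p was 0.490 and its DESeq2 adjusted p 0.0105.

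Cytoskeletal genes rose in both genotypes, 25 of 42 in controls and 30 in knockouts, 23 in both, with a median interaction of -0.02 (-0.35 without ctrl replicate 1). Pfn1, which feeds actin monomers to filaments, and Marcks, which binds actin at the membrane, rose past the threshold in knockouts and not in controls (1.93, SE 0.49 and 1.61, SE 0.50). Their interactions of 1.84 (SE 0.69) and 1.48 (SE 0.70) passed only in edgeR without the low-count filter. The interaction of Marcks was 0.52 without ctrl replicate 1. Of 30 acute phase genes 8 rose in controls and 10 in knockouts, 8 in both, where 10.5% and 9.42% of all tested genes rose. Lcn2, an iron-sequestering protein, rose by 4.22 (SE 0.26) and 5.00 (SE 0.26), and Apcs, serum amyloid P, rose in knockouts by 1.77 (SE 0.26) with 0.68 (SE 0.26, edgeR adjusted p = 0.0787) in controls. The interaction of Lcn2, 0.78 (SE 0.36), was 0.48 without Yap/Taz KO + CCl4 replicate 2, and that of Apcs, 1.09 (SE 0.37), was 0.69 without ctrl replicate 3. Circadian genes had a median of 0.05, with Clock, the core activator, at -1.09 (SE 0.39) and Rgs16 the other way at 3.15 (SE 1.46). Rgs16 had 6 counts over the injured controls, and its interaction was 2.09 without ctrl replicate 3. Medians were 0.22 for the unfolded protein response, 0.07 for NRF2 targets, -0.21 for immediate early genes, -0.08 for Wnt and growth factor genes and 0.31 for iron handling. Of these only iron handling kept its sign in 21 of 21 alternatives. Without ctrl replicate 1 the medians were -0.79 for immediate early genes, 0.34 for the unfolded protein response and -0.03 for NRF2 targets. Srebf1, which drives fatty acid synthesis, fell in controls by 1.56 (SE 0.42) and had 0.04 (SE 0.42) in knockouts, an interaction of 1.6 (SE 0.60) that was 0.83 without ctrl replicate 3. Slc25a20, the mitochondrial carnitine carrier, fell in controls (log2 fold change -1.04, SE 0.22) and had -0.05 (SE 0.22) in knockouts, an interaction of 0.99 (SE 0.31).

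Macrophage, stellate cell and monocyte markers were higher after injury in both genotypes, without overlap in knockouts. In controls the macrophage and stellate ranges overlapped through ctrl replicate 1. In bulk samples fewer cells of a type and less RNA per cell cannot be told apart. Summed macrophage and Kupffer cell markers (18 of 18 detected) were 707 to 3935 CPM in ctrl and 3505 to 6023 in ctrl + CCl4, and 382 to 1710 in Yap/Taz KO and 2909 to 4239 in Yap/Taz KO + CCl4. Stellate cell markers went from 451 to 1868 up to 1419 to 2562 CPM in controls and from 435 to 1121 up to 2042 to 2274 in knockouts. Monocyte and neutrophil markers without F10, Lcn2 and Fn1, which hepatocytes also make (a choice made after the data were seen), were 37.7 to 182 CPM in ctrl, 329 to 531 in ctrl + CCl4, 29.9 to 60.1 in Yap/Taz KO and 227 to 338 in Yap/Taz KO + CCl4. Cholangiocyte markers, 6 of 16 tested, reached 467 to 551 CPM in injured controls and 136 to 271 in injured knockouts, which did not overlap. The list includes Spp1, which alone held most of the sum in injured controls. Spp1 had 345, 291 and 416 CPM there and 113, 169 and 46.8 in injured knockouts. The list was not summed without Spp1, and 1 of its 16 genes was at 0 in all libraries. Endothelial sums overlapped before and after injury in both genotypes (774 to 2769 and 1101 to 1373 CPM in controls, 625 to 1614 and 1221 to 1530 in knockouts). Erythroid sums were 31.2 to 1612 and 53.8 to 132 CPM in controls and 28.5 to 72.8 and 91.9 to 117 in knockouts, and lymphocyte sums 14.2 to 87.6 and 88.5 to 121 in controls and 21.7 to 77.4 and 41.8 to 89.7 in knockouts. Of the macrophage genes 16 of 18 had a positive interaction (median 0.76), but 1 of 18 without ctrl replicate 1 (median -0.33). The stellate, endothelial and monocyte medians of 0.62, 0.78 and 0.90 became -0.54, -0.22 and -0.42 without it, with all 14 tested monocyte and neutrophil genes. The monocyte list without F10, Lcn2 and Fn1 had a median of 1.21, and -0.94 without ctrl replicate 1. The part of other cells in the interaction of single genes was not tested.

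Summed hepatocyte-defining genes were 148231 to 188690 CPM in ctrl and 86927 to 108099 in ctrl + CCl4, against 168809 to 194942 and 123263 to 144320 in knockouts. Injured knockouts were all above injured controls. Of these 12 genes 7 fell in controls and 2 in knockouts, where 12% and 8.35% of all tested genes fell. Of the 12, 10 had a positive interaction (median 0.39, 0.37 without ctrl replicate 1). Mitochondrially encoded transcripts, 9 tested, had a median interaction of -0.80, with 7 negative. They took 4.88% to 18.3% of counts per library, and the ranges of the 4 groups overlapped. The labels do not give the sex of the mice. Sex-biased and Y-linked genes, 7 of 14 tested and none of those Y-linked, had a median interaction of 0.93, which fell to 0.13 without Yap/Taz KO + CCl4 replicate 2. Their summed level was 2347 to 4629 CPM in ctrl, 3021 to 9434 in ctrl + CCl4, 1369 to 2843 in Yap/Taz KO and 7696 to 8656 in Yap/Taz KO + CCl4. The knockout groups did not overlap and the control groups did. The sum, which abundant genes dominate, did not follow most members. The 7 tested genes had a median log2 fold change of -2.30 in controls and -0.93 in knockouts. In each genotype 3 were called down, and 1 was called up in knockouts. The sum was not split by gene. Xist, expressed from the inactive X chromosome, had an interaction of 0.17 (95% interval -1.98 to 2.32) and Serpina1e, an antitrypsin gene, one of 2.10 (SE 0.96). Both genes were chosen after their values were seen, and the part of sex in the interaction was not tested.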

How the data were processed

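RNA of sorted hepatocytes was sequenced as QuantSeq 3' FWD libraries, per the labels' protocols. The deposited table holds raw read counts per gene symbol (37141 genes), and its values show no scaling by the authors. The submitters' processing notes name STAR 2.6.1d, cutadapt, FastQC and the build GRCm38 (mm10); the tool and annotation used for counting were not given in the sources used here. Counts of all 12 samples were fitted with edgeR 4.0.16 in R 4.3.3: filterByExpr (minimum count 10, minimum total 15), TMM scaling, 1 coefficient per group, quasi-likelihood F tests and Benjamini-Hochberg adjustment at 0.05 over 10780 genes. CPM are per TMM-scaled library, and levels were not compared between genes. Standard errors are of Wald type from the fitted model, with 95% intervals; 90 genes with no counts in a group have none. DESeq2 1.42.0 and limma 3.58.1 were alternatives. The fit was also run on simulated counts whose spread per gene was alike in all 12 libraries, which was not so in these data. No result here rests on that run.

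Named genes were Yap1, Wwtr1 and 4 known targets, the 12 smallest interaction p per direction and the 10 largest shared responses per direction (at least 20 CPM in 1 group), the 2 smallest interaction p of each pathway list, and any gene called in opposite directions. Some of the genes named for a pathway list are not printed above. Members and lists were chosen with earlier results of these data known. Positions are from GENCODE M21 and promoters from RefSeq, which held 79 of the 100 named genes.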

Additional observations from a re-analysis of the deposited data

How the results depend on the processing

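With each library left out in turn the number of genes called in the Yap/Taz KO response ran from 1176 to 2331, that in the ctrl response from 1666 to 3173, that called in both from 929 to 1672, and that of shared responses from 155 to 297; the signed median interaction ran from -0.44 (without ctrl replicate 1) to -0.0232, and the interaction had 0 calls each time. The knockout count was lowest without Yap/Taz KO + CCl4 replicate 1 (1176) and Yap/Taz KO replicate 2 (1190), and shared responses fell to 157 and 155 without these, to 176 without ctrl + CCl4 replicate 1 or 3 and to 168 without Yap/Taz KO + CCl4 replicate 2, with fewer samples in the fit. Genes with an unadjusted edgeR interaction p under 0.05 numbered from 544 (without ctrl + CCl4 replicate 2) to 1431 (without ctrl replicate 1). The interaction had 115 calls without the low-count filter and 12 with DESeq2, and 3 genes were shared with bounds of 0.6. Signs turned for 4 genes. With each library left out Yap1 ran from -0.32 to 0.25 (0.14 without ctrl replicate 1, 0.056 without ctrl + CCl4 replicate 3, 0.25 without Yap/Taz KO replicate 1), Ccn2 from -1.18 (without ctrl replicate 1) to 4.34, Amotl2 from -0.10 (without Yap/Taz KO + CCl4 replicate 1; -0.06 without ctrl replicate 1) to 0.41, and Ccn1 from -0.0805 (without Yap/Taz KO replicate 3; -0.07 without Yap/Taz KO + CCl4 replicate 3) to 1.21. The cause was not tested. Of 80 named genes other than the shared ones, whose interactions lie near 0, the other 76 kept their sign in every alternative that tested them. These were 21 alternatives, and 20 for Ankrd1. Leaving out 1 library moved the interaction of 28 of the 80 by over 1.5 times, most often ctrl replicate 3 (13 genes) and ctrl replicate 1 (11 genes).

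With the replicate number as a block the interaction had 0 calls (965 at an unadjusted p under 0.05), the responses 2594 and 2095 calls, 1457 in both, 372 shared, and the signed median was -0.14. Same-numbered libraries of different groups correlated by -0.15 to 0.32 and different-numbered ones by -0.35 to 0.27, which overlap. Of the 12 libraries 7 were closest to a library of their own number. Whether the numbers pair the samples was not tested.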
